A study of Homo sapiens with 12 samples.

Results

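The NF-kB feedback genes and chemokines were examined as 10 genes picked by symbol from the 20531 genes measured by RNAseq in SKBR-3 cells. They comprised the subunit genes NFKB1, NFKB2 and RELB, the feedback genes NFKBIA, TNFAIP3 and BIRC3, and the chemokine genes CCL20, CXCL1, CXCL2 and IL8. SKBR-3 is an established HER2-amplified breast carcinoma cell line, so every sample shared 1 genetic background. The 12 samples formed 4 groups with 3 replicates in each: NT siRNA + DMSO, NT siRNA + lapatinib, FOXA1 siRNA + DMSO and FOXA1 siRNA + lapatinib. NT is a non-targeting siRNA pool, the FOXA1 pool depletes the pioneer factor FOXA1, and lapatinib, a kinase inhibitor of HER2 and EGFR, was given at 300 nM for 24 h against DMSO, its solvent. By the labels the siRNA preceded the drug by 48 h, by the methods by 24 h. The study asked how FOXA1 takes part in the transcriptional response to HER2 inhibition, and here that question is put to the NF-kB genes.

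NF-kB is a family of dimeric transcription factors that IkB proteins hold in the cytoplasm until IkB kinases, activated by cytokine and pattern-recognition receptors, release them. The dimers then turn on genes that shut the pathway down again, among them the inhibitor NFKBIA and the ubiquitin-editing enzyme TNFAIP3, and genes for their own subunits. They also turn on chemokines that recruit leukocytes to inflamed epithelium. NFKB1 encodes p105, the precursor of p50, and NFKB2 encodes p100, the precursor of p52, which pairs with RELB in the alternative pathway. BIRC3 encodes the ubiquitin ligase cIAP2, which acts below the TNF receptors.

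Stretches upstream of the members' starts are shown because kB sites near the start are the shared regulatory feature by which these genes are known. The sequences came from RefSeq on GRCh38.p14, which had promoter windows for 9 of the 10 members (RELB had none), 12 windows in all because NFKB1 and NFKB2 have several starts. Each window ran from 250 bases before a start to 50 after it. Capitals mark matches to the kB consensus GGGRNWYYCC, where R is A or G, N any base, W A or T, and Y C or T. It was searched on both strands with overlapping matches joined, and each line is written 5′ to 3′ on the strand of the gene.
NFKB1, chr4:102501229-102501328, plus strand: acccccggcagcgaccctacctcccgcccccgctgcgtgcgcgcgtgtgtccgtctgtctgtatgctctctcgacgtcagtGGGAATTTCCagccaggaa
NFKB2, chr10:102395664-102395693, plus strand, ahead of the last of its 3 listed starts: cgcctccccttggtattttcGGGACTTTCC
NFKBIA, chr14:35404780-35404879, minus strand: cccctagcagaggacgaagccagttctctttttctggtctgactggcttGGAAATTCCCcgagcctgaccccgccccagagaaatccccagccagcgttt
TNFAIP3, chr6:137867114-137867213, plus strand: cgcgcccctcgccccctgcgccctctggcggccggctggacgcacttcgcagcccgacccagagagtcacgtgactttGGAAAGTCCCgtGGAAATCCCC
BIRC3, chr11:102317274-102317373, plus strand: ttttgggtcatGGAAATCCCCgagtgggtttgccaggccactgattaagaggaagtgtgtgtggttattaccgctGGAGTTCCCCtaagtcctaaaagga
CCL20, chr2:227813712-227813811, plus strand: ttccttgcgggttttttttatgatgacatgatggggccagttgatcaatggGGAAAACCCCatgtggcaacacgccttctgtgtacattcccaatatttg
CXCL1, chr4:73869263-73869362, plus strand: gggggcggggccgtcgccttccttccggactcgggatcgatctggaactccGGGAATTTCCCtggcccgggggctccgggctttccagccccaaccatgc
CXCL2, chr4:74099226-74099325, minus strand: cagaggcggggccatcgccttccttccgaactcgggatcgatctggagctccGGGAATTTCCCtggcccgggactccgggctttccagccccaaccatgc
IL8, chr4:73740419-73740518, plus strand: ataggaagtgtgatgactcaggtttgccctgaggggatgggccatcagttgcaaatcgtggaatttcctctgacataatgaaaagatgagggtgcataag

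A match to the kB consensus was present in 9 of the 12 member windows and in 8 of the 9 members that had a window, all but IL8. The IL8 stretch holds tggaatttcc, which departs from the consensus only at its first base. The lack of a match there therefore does not mean that IL8 lacks a kB site. Of all 35116 RefSeq windows of this length, 5.91% held one. TNFAIP3 and BIRC3 each carried 2 separate matches within the stretch shown. The TNFAIP3 stretch lies ahead of the start of its window, which is inside the full span of the gene given below. CXCL1 and CXCL2, which are paralogs on chromosome 4, were identical at 93 of 99 aligned bases of their stretches and shared the match. The forkhead motif GTAAACA or GTCAACA was in 5.62% of all windows and in 0 of the 12 member windows. With 12 windows, 0 is not far from that share, and enhancers outside the windows were not searched. The AP-1 motif TGANTCA was in 7.71% of all windows and in 1 of the member windows, that of IL8, at bases -137 to -131 from the start. These matches describe letters in a window and show no binding.

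The genes lie apart in the genome except for 3 chemokine genes. NFKB1 spans chr4:102501359-102617302, NFKB2 chr10:102394110-102402529 and RELB chr19:45001464-45038192 on GRCh38.p14. NFKBIA spans chr14:35401513-35404749, TNFAIP3 chr6:137866349-137883312 and BIRC3 chr11:102317484-102339403. CCL20 lies at chr2:227813842-227817556. IL8, which RefSeq names CXCL8, lies at chr4:73740569-73743716 on the same arm as CXCL1 at chr4:73869393-73871308 and CXCL2 at chr4:74097040-74099195.

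Libraries held 25749577 to 32271849 counts. FOXA1 stood at 8310 to 13200 normalized counts with NT siRNA and at 1160 to 2380 with FOXA1 siRNA, so the siRNA labels held in all 12 libraries. ERBB2, GRB7, EPCAM and the keratin genes KRT7, KRT8, KRT18 and KRT19 were abundant throughout, whereas CDH1, a marker fixed for the epithelial identity, did not exceed 18.9 normalized counts. PTPRC, the pan-leukocyte marker, did not exceed 5.17, 3 of 7 leukocyte markers and 4 of 7 stromal or endothelial markers stayed under 10 reads in every library. The leukocyte list summed to 463 to 752 and 839 to 1150 normalized counts with NT siRNA in DMSO and lapatinib, and to 634 to 848 and 937 to 1280 with FOXA1 siRNA, nearly all of it CD68, while the stromal and endothelial list summed to 1010 to 1250 and 544 to 796, then 822 to 1040 and 831 to 1130, mostly COL1A1 and CDH5. The part of either in the results was not tested. Replicate 2 stood apart in every group: its counts differed from those of replicates 1 and 3 by a chi-square of 12.1 to 17.6 per degree of freedom, and replicates 1 and 3 from each other by 3.62 to 5.68. Where leaving out replicate 2 of every group changed the call of a member, both values are given. No source says that the replicates were separate cultures, so the p-values measure the spread between these samples, which may be technical.

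In TPM, a transcript level corrected for gene length and library size, the 10 members fell into an ordered series. NFKBIA was the highest, with a median of 87.7 TPM over the 12 libraries and a range of 68.9 to 126. NFKB1 followed with a median of 31.9 TPM (27.0 to 35.3) and NFKB2 with 25.6 TPM (18.6 to 36.8), and the ranges of these neighbours overlapped. RELB had a median of 7.86 TPM (5.19 to 15.2), TNFAIP3 of 2.06 TPM (1.63 to 3.24) and BIRC3 of 0.96 TPM (0.53 to 1.49), with no overlap between neighbours. The 4 chemokines did not exceed 0.4 TPM in any library. Thus 6 members had at least 10 counts in a library and entered the tests, and the 4 chemokines did not. In bulk RNA, fewer cells expressing a gene and less RNA per cell cannot be told apart.

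NFKB1 and NFKB2, the precursor subunit genes, were higher with lapatinib in cells given FOXA1 siRNA, and NFKB1 also in cells given NT siRNA. In NT siRNA + DMSO, replicates 1, 2 and 3 held 2005.2, 2060.0 and 1915.0 normalized counts of NFKB1 (counts scaled to a common library size), and in NT siRNA + lapatinib 2245.3, 2198.1 and 2121.2. In FOXA1 siRNA + DMSO they held 1898.1, 1848.4 and 1759.5, and in FOXA1 siRNA + lapatinib 2303.6, 2332.9 and 2298.4. Every lapatinib sample was thus above every DMSO sample of either siRNA, and the 3 samples of FOXA1 siRNA + lapatinib were the highest. With FOXA1 siRNA, lapatinib raised NFKB1 by 0.34 ± 0.0475 on the log2 scale (SE, 3 against 3; adjusted p = 0.000415, edgeR quasi-likelihood test with Benjamini-Hochberg adjustment over all genes, which is the test behind every adjusted p here unless named otherwise). With NT siRNA the rise was 0.16 ± 0.0568 (adjusted p = 0.0424). The latter call was lost with DESeq2 (adjusted p = 0.0865) and with other scalings, and of the 9 fits that left out 1 sample or 1 replicate number it held only without replicate 2, of NT siRNA + DMSO or of every group (0.11 to 0.18 over the 9, adjusted p up to 0.269). FOXA1 siRNA itself gave -0.11 in DMSO (adjusted p = 0.148) and 0.07 in lapatinib (adjusted p = 0.254), neither of which passed.

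NFKB2 held 1293.2, 1670.4 and 1078.3 normalized counts in NT siRNA + DMSO and 1123.2, 1397.2 and 1092.4 in NT siRNA + lapatinib. It held 1030.0, 1225.2 and 905.9 in FOXA1 siRNA + DMSO and 1242.7, 1508.5 and 1254.6 in FOXA1 siRNA + lapatinib. Replicate 2 was the highest of its group each time, and only the last 2 of these groups did not overlap. NFKB2 rose with lapatinib in FOXA1 siRNA cells by 0.35 ± 0.118 (adjusted p = 0.0319). This call was lost with all samples in one model (adjusted p = 0.084), without replicate 1 or 3 of FOXA1 siRNA + DMSO (adjusted p = 0.0862 and 0.0991), without replicate 2 of FOXA1 siRNA + lapatinib (adjusted p = 0.0918) and without replicate 1 or 3 of every group (adjusted p = 0.103 and 0.112). With NT siRNA the log2 fold change was -0.14 ± 0.163 (adjusted p = 0.48), with FOXA1 against NT siRNA it was -0.34 ± 0.171 in DMSO (adjusted p = 0.143) and 0.14 ± 0.113 in lapatinib (adjusted p = 0.339). Without replicate 2 of every group NFKB2 passed in DMSO at -0.28 (adjusted p = 0.0251), in lapatinib at 0.16 (adjusted p = 0.0427) and for the difference of lapatinib responses at 0.46 (adjusted p = 0.0237).

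RELB, the partner subunit of the alternative pathway, had the widest spread of the subunits. It held 257.1, 455.0 and 225.2 normalized counts in NT siRNA + DMSO, 311.4, 544.6 and 248.2 in NT siRNA + lapatinib, 226.8, 320.9 and 184.6 in FOXA1 siRNA + DMSO, and 294.4, 386.3 and 274.2 in FOXA1 siRNA + lapatinib. All 4 groups overlapped, and replicate 2 was 1.36 to 1.95 times the mean of the other replicates of its group. With all samples and no replicate block, no comparison of RELB passed: the log2 fold changes were 0.26 and 0.39 for lapatinib with NT and FOXA1 siRNA (adjusted p = 0.535 and 0.142) and -0.34 and -0.22 for FOXA1 against NT siRNA in DMSO and lapatinib (adjusted p = 0.387 and 0.548). Lapatinib with FOXA1 siRNA passed in 2 of 9 fits with samples left out, at 0.47 without replicate 2 of every group (adjusted p = 0.0138) and at 0.64 without replicate 2 of FOXA1 siRNA + DMSO (adjusted p = 0.0161).

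NFKBIA, which encodes the inhibitor IkBα, was the most abundant member per length and was lower with FOXA1 siRNA in each replicate number. It held 2191.4, 2961.2 and 2078.9 normalized counts in NT siRNA + DMSO and 2276.2, 3076.6 and 2197.1 in NT siRNA + lapatinib. It held 1870.1, 2282.9 and 1850.9 in FOXA1 siRNA + DMSO and 1820.2, 2349.3 and 1710.0 in FOXA1 siRNA + lapatinib. The FOXA1 and NT siRNA groups overlapped only through replicate 2 of the FOXA1 siRNA groups, which was above replicates 1 and 3 of the NT groups. The log2 fold change of FOXA1 against NT siRNA was -0.26 ± 0.146 in DMSO (adjusted p = 0.194) and -0.37 ± 0.154 in lapatinib (adjusted p = 0.0846), and neither passed. Between samples of the same replicate number the values were -0.229, -0.375 and -0.168 in DMSO, and lapatinib samples gave -0.323, -0.389 and -0.362. Blocking on replicate number, NFKBIA fell in DMSO and in lapatinib, by 0.25 ± 0.046 (adjusted p = 0.00111) and by 0.37 ± 0.0367 on the log2 scale (adjusted p = 5.37e-06). It also passed in both drugs without replicate 2 of every group, at -0.185 in DMSO (adjusted p = 0.00862) and -0.35 in lapatinib (adjusted p = 0.00126). Lapatinib gave 0.08 ± 0.166 with NT siRNA and -0.02 ± 0.127 with FOXA1 siRNA (adjusted p = 0.689 and 0.896).

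TNFAIP3, which encodes the feedback enzyme A20, held 150.7, 225.0 and 146.6 normalized counts in NT siRNA + DMSO and 120.1, 153.0 and 119.0 in NT siRNA + lapatinib. It held 119.9, 166.5 and 133.2 in FOXA1 siRNA + DMSO and 153.9, 180.6 and 130.0 in FOXA1 siRNA + lapatinib. All groups overlapped. The log2 fold change with lapatinib was -0.39 ± 0.204 with NT siRNA (adjusted p = 0.129) and 0.15 ± 0.171 with FOXA1 siRNA (adjusted p = 0.462), and neither passed.

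BIRC3 moved with lapatinib in opposite directions under the 2 siRNA pools. It held 44.3, 61.5 and 43.1 normalized counts in NT siRNA + DMSO and 32.1, 32.8 and 26.7 in NT siRNA + lapatinib. It held 38.0, 22.3 and 36.2 in FOXA1 siRNA + DMSO and 50.6, 57.7 and 50.1 in FOXA1 siRNA + lapatinib. Neither lapatinib group overlapped its own DMSO group, and the lapatinib groups did not overlap each other. BIRC3 fell with lapatinib in NT siRNA cells, by 0.68 ± 0.235 on the log2 scale (adjusted p = 0.0345), and rose in FOXA1 siRNA cells by 0.73 ± 0.231 (adjusted p = 0.0256). The difference between the responses was 1.42 ± 0.319 (adjusted p = 0.0208, interaction of siRNA and drug over the 12 samples), positive in each replicate number at 0.881, 2.275 and 1.165.

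In lapatinib, BIRC3 was higher with FOXA1 than with NT siRNA by 0.78 ± 0.189 (adjusted p = 0.0105), and in DMSO the value was -0.62 ± 0.264 (adjusted p = 0.0949). These 4 pairwise values share samples and are not independent of each other. The gene was thinly covered, with 24 to 62 reads per library. Leaving out replicate 2 of every group, whose FOXA1 siRNA + DMSO sample was the lowest of all, gave -0.57 and 0.45 for lapatinib with NT and FOXA1 siRNA (adjusted p = 0.0805 and 0.111), 0.77 for FOXA1 siRNA in lapatinib (adjusted p = 0.0319) and a difference of responses of 1.02 (adjusted p = 0.0417). The DMSO comparison then stood at -0.22 (adjusted p = 0.446). With DESeq2 the lapatinib calls were lost in both siRNA arms (Benjamini-Hochberg adjusted p = 0.0775 and 0.0544), and the interaction held (adjusted p = 0.00849). The interaction was also lost without replicate 3 of NT siRNA + lapatinib (adjusted p = 0.0574) and with 2 replicates per group when replicate 1 or 3 was left out of every group (adjusted p = 0.245 and 0.234). With samples left out, the fall with NT siRNA held in 1 of 9 fits (without replicate 3 of NT siRNA + DMSO) and the rise with FOXA1 siRNA in 3 of 9 (without replicate 1 or 3 of FOXA1 siRNA + DMSO or replicate 3 of FOXA1 siRNA + lapatinib). The excess with FOXA1 siRNA in lapatinib held in 7 of 9, all but those without replicate 1 or 3 of every group (adjusted p = 0.0744 and 0.0874).

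**Figure D1:**
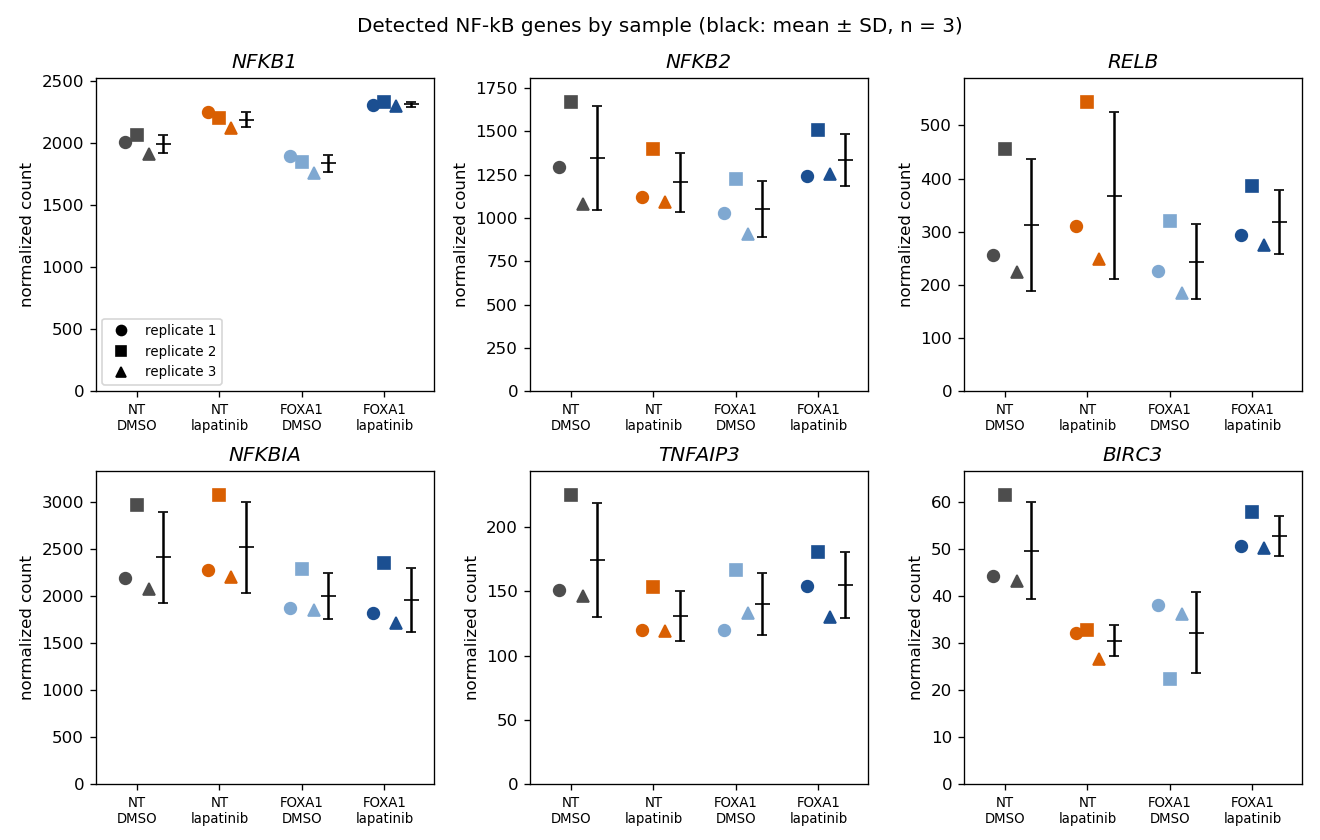
Normalized counts (vertical axis, from 0) of the 6 tested members in the 12 samples, grouped by siRNA and drug along the horizontal axis. Marker shapes give the replicate number, and black bars give the mean ± SD of 3 samples. Replicate 2 (squares) tops every group of NFKB2, RELB, NFKBIA and TNFAIP3, whereas BIRC3 falls from DMSO to lapatinib with NT siRNA and rises with FOXA1 siRNA.

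Counted by comparison and without the replicate block, 0 to 3 of the 6 tested members were called in a direction, to be read against the shares of all genes. With NT siRNA, lapatinib raised 1 of the 6 tested members (NFKB1) and lowered 1 (BIRC3), where 30.5% of the 13713 genes tested were called higher and 29.2% lower. With FOXA1 siRNA, lapatinib raised 3 (NFKB1, NFKB2 and BIRC3), where 29.0% of 13745 genes were higher and 29.1% lower. By edgeR 0 members were lower there, 0 at an unadjusted p under 0.05, and 0 by DESeq2. FOXA1 siRNA in DMSO called 0 members in either direction with edgeR, where 21.9% of 13694 genes were higher and 21.3% lower. DESeq2 also called 0, and 1 member (BIRC3) had an unadjusted edgeR p under 0.05. FOXA1 siRNA in lapatinib raised 1 (BIRC3), where 22.7% of 13727 genes were higher and 22.2% lower. It lowered 0 by edgeR, with 1 (NFKBIA) at an unadjusted p under 0.05 and 1, also NFKBIA, by DESeq2 (adjusted p = 0.0372). The interaction was called for 1 member (BIRC3) with a positive sign, where 3.99% of 14012 genes were positive and 3.20% negative, and for 0 members with a negative sign by edgeR, 0 at an unadjusted p under 0.05 and 0 by DESeq2.

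The samples also paired by replicate number, and taking the number as a block narrowed the errors of the members that replicate 2 had widened. With the block, lapatinib with NT siRNA raised 2 members (NFKB1, and RELB by 0.25 at adjusted p = 0.0243) and lowered 2 (BIRC3, and TNFAIP3 by 0.38 ± 0.117 at adjusted p = 0.0221), where 34.5% of genes were higher and 32.8% lower. Lapatinib with FOXA1 siRNA raised 4, with RELB joining at 0.40 ± 0.0876 (adjusted p = 0.00309), where 34.5% were higher and 34.1% lower.

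FOXA1 siRNA in DMSO lowered 5 of the 6 with the block, where 30.3% of genes were higher and 30.2% lower. These were NFKB1 at -0.11 (adjusted p = 0.0326), NFKB2 at -0.33 (adjusted p = 0.000318), RELB at -0.33 (adjusted p = 0.00978), NFKBIA, and TNFAIP3 at -0.30 (adjusted p = 0.0359). The sixth, BIRC3, stood at -0.61 with adjusted p = 0.0641. All 6 members had a negative same-replicate difference in each of the 3 replicate numbers. The count was 2, NFKB2 and NFKBIA, when replicate 2 was left out of every group instead.

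FOXA1 siRNA in lapatinib raised 2 members with the block (BIRC3, and NFKB2 by 0.14 ± 0.0442 at adjusted p = 0.0149) and lowered NFKBIA, where 30.6% of genes were higher and 31.1% lower. The lapatinib response was more positive with FOXA1 siRNA for 4 members, where 11.1% of genes had a positive and 9.22% a negative difference. The 4 were BIRC3, NFKB1 by 0.20 ± 0.0503 (adjusted p = 0.0151), NFKB2 by 0.50 ± 0.087 (adjusted p = 0.00185) and TNFAIP3 by 0.55 ± 0.146 (adjusted p = 0.0189). Without the block, NFKB1, NFKB2 and TNFAIP3 had adjusted p = 0.0932, 0.21 and 0.271 for this difference. RELB and NFKBIA passed in neither fit (blocked adjusted p = 0.493 and 0.274).

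**Figure D2:**
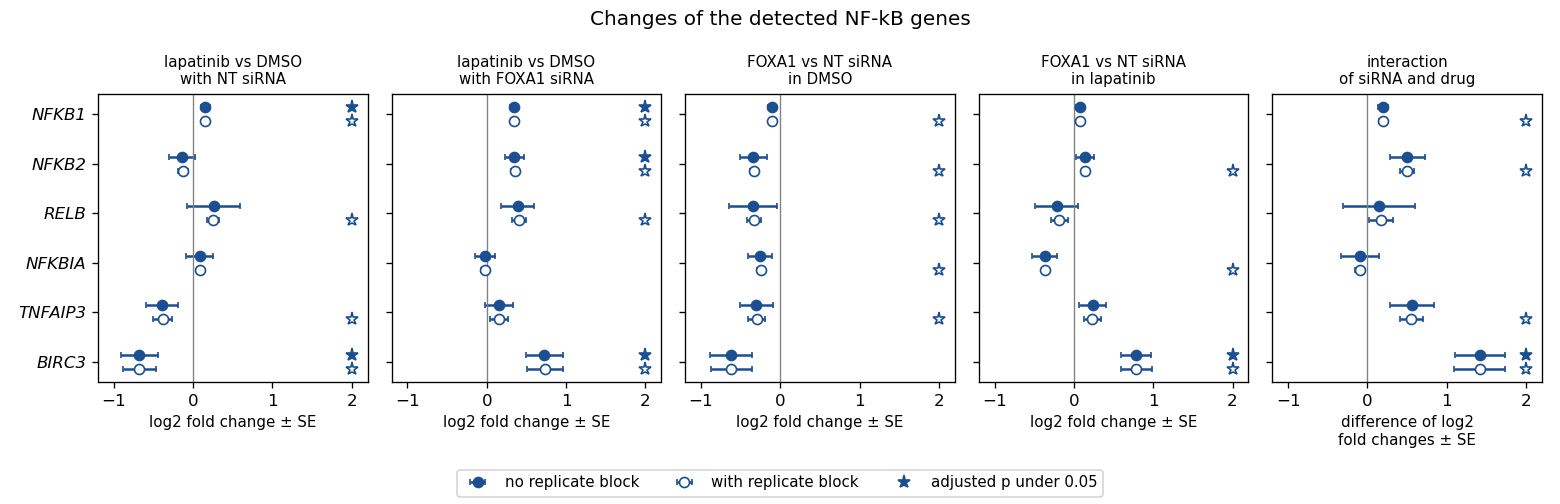
Log2 fold changes ± SE (horizontal axes) of the 6 tested members in the 4 pairwise comparisons and the difference of lapatinib responses between siRNA pools. Filled points are fits without and open points fits with the replicate number as a block, and stars at the right edge mark an adjusted p under 0.05. The estimates barely move with the block while the error bars of NFKB2, RELB, NFKBIA and TNFAIP3 shorten, and BIRC3 has the largest difference of responses among these 6, at 1.42.

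The median log2 fold change of the 6 tested members was -0.03 for lapatinib with NT siRNA and 0.35 for lapatinib with FOXA1 siRNA, beside medians over all tested genes of 0.025 and 0.006. FOXA1 siRNA gave -0.32 (DMSO) and 0.11 (lapatinib), beside -0.005 and -0.005. The comparisons share their DMSO or lapatinib samples, so a high or low group enters several of these values.

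Replicate 2 was the highest sample in 4 of 4 groups for NFKB2, RELB, NFKBIA and TNFAIP3. It was 1.21 to 1.41 times the mean of replicates 1 and 3 for NFKB2, 1.23 to 1.39 times for NFKBIA and 1.27 to 1.51 times for TNFAIP3. NFKB1 hardly differed, at 1.01 to 1.05 times, and BIRC3 ranged from 0.602 to 1.41 times. A test for any difference among replicate numbers given the group called these same 4 members, with adjusted p = 0.000357 for NFKB2, 0.000125 for RELB, 1.94e-05 for NFKBIA and 0.00371 for TNFAIP3, against 0.201 for NFKB1 and 0.857 for BIRC3. This test called 28.3% of the 14012 genes. Replicate 2 was the highest in all 4 groups for 12.2% of genes, replicate 1 for 4.47% and replicate 3 for 5.07%. What set replicate 2 apart was not tested.

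**Figure D3:**
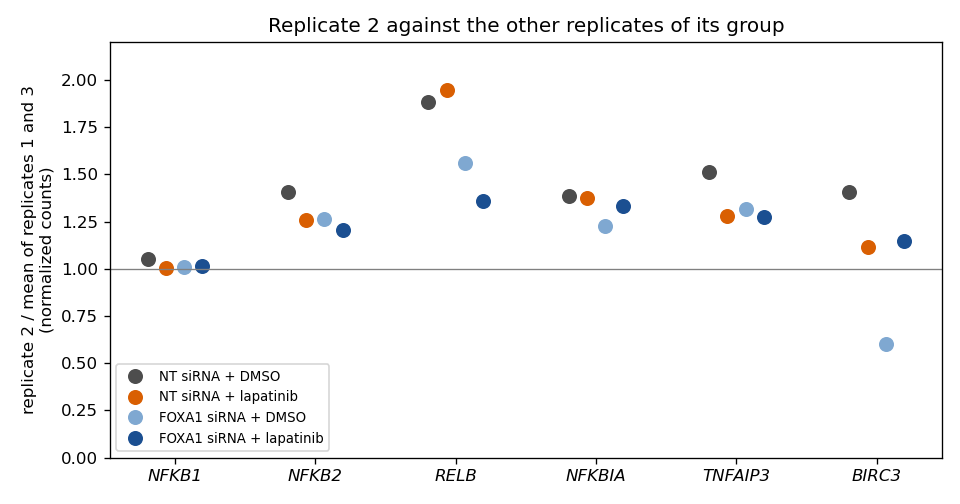
Ratio of the normalized count in replicate 2 to the mean of replicates 1 and 3 of the same group (vertical axis, from 0; grey line at 1) for the 6 tested members, with 1 point per group. RELB has the widest excess, 1.36 to 1.95 times, NFKB1 lies at the line, and BIRC3 falls below it in FOXA1 siRNA + DMSO, at 0.602 times.

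The chemokines were near the limit of detection. CCL20, the ligand of CCR6, had 3, 4 and 0 reads in NT siRNA + DMSO, 0, 5 and 0 in NT siRNA + lapatinib, 2, 4 and 2 in FOXA1 siRNA + DMSO and 1, 3 and 4 in FOXA1 siRNA + lapatinib. IL8, a neutrophil attractant that signals through CXCR1 and CXCR2, had 6, 1 and 2, then 1, 2 and 1, then 2, 5 and 1, then 1, 1 and 2 reads in the same order of groups. Neither gene separated any group from another.

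CXCL1 and CXCL2, which also signal through CXCR2, were the lowest. CXCL1 had 4, 3 and 3 reads in NT siRNA + DMSO, 0, 2 and 0 in NT siRNA + lapatinib, 1, 0 and 0 in FOXA1 siRNA + DMSO and 2, 0 and 0 in FOXA1 siRNA + lapatinib, so its NT siRNA + DMSO samples lay above all others. CXCL2 had 0 or 1 read in every library, 6 in all. As close paralogs, the pair may have had reads split between them in the counting. CXCL1 summed to 10 reads in NT siRNA + DMSO and 1 in FOXA1 siRNA + DMSO, a ratio of 0.0981 with a 95% exact interval of 0.00226 to 0.69 that covers counting error only. Without the filter on low counts CXCL1 passed in this comparison (edgeR adjusted p = 0.0466), and no other chemokine comparison did. Together the 4 genes gave 1 to 13 reads per library, and a count of 0 allows up to 3 reads, so the depth leaves differences among these genes unresolved. The CXCL1 comparison was singled out after its reads were seen.

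**Figure D4:**
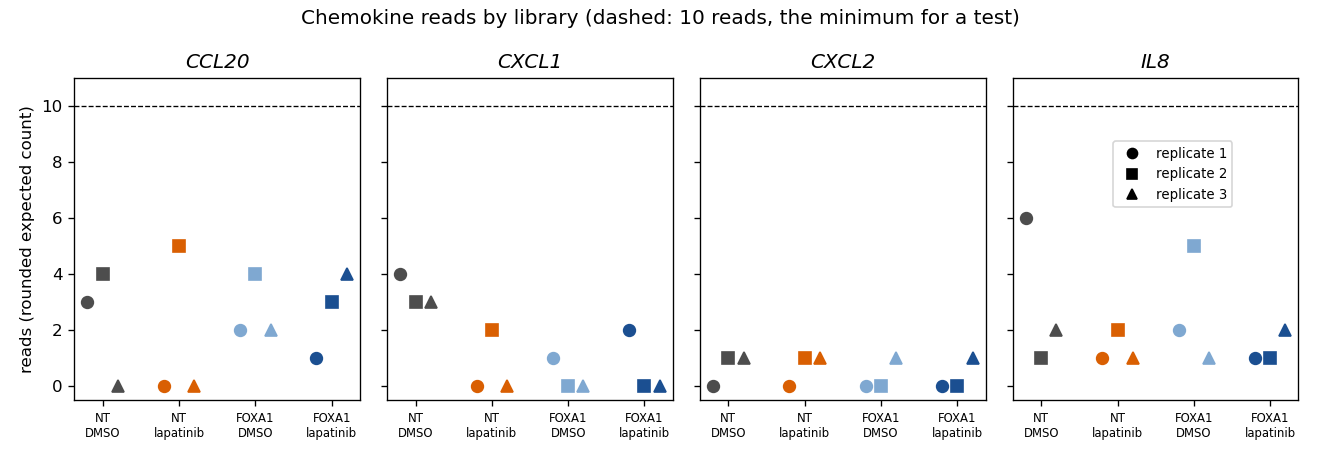
Reads (rounded expected counts, vertical axis) of the 4 chemokine members in each library, by group, with marker shapes for the replicate number. All 48 points lie at 6 reads or fewer, under the dashed line at 10 reads that a gene had to reach in a library to be tested.

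The other pathway genes were read from lists of the pathway that were not picked by how their genes moved here, though earlier results of these data were known. Among 12 further subunits, kinases and IkB proteins, 3 were higher and 5 lower with lapatinib under NT siRNA (all genes 30.5% and 29.2%). Under FOXA1 siRNA 3 were higher and 3 lower (all genes 29.0% and 29.1%). CHUK, the kinase IKKα, fell by 0.66 ± 0.0679 and by 0.70 ± 0.0617 on the log2 scale (adjusted p = 6.91e-05 and 3.94e-05), while IKBKB, the kinase IKKβ, rose by 0.44 and 0.38 (adjusted p = 0.00425 and 0.00468), the latter lost without replicate 3 of every group (adjusted p = 0.0563). FOXA1 siRNA lowered IKBKE, an IKK-related kinase, from a mean of 588 to 187 normalized counts in DMSO (log2 fold change -1.64 ± 0.0885, adjusted p = 1.27e-05). In this list 2 genes were higher and 3 lower with FOXA1 siRNA in DMSO (all genes 21.9% and 21.3%). In lapatinib 2 were higher and 3 lower (all genes 22.7% and 22.2%). The list's median log2 fold changes were -0.31, -0.05, -0.09 and -0.02 in the order in which the comparisons were given.

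Of 24 receptors and adaptors, 11 of 22 tested were higher and 4 lower with lapatinib under NT siRNA (all genes 30.5% and 29.2%). Under FOXA1 siRNA 11 of 21 were higher and 3 lower (all genes 29.0% and 29.1%). The medians were 0.40 and 0.26. IL1R1, the signalling receptor of interleukin-1, rose with lapatinib under NT siRNA by 0.99 ± 0.0817 (adjusted p = 2.3e-05) and was lower with FOXA1 siRNA, at -0.57 (DMSO) and -1.61 (lapatinib; adjusted p = 0.000473 and 8.17e-06). The coreceptor IL1RAP was higher with FOXA1 siRNA, by 0.92 and 0.75 (adjusted p = 6.54e-05 and 0.00202). With FOXA1 siRNA 5 of the 21 tested were higher and 6 lower in DMSO (all genes 21.9% and 21.3%). In lapatinib 6 of 21 were higher and 5 lower (all genes 22.7% and 22.2%). The medians were -0.02 and 0.04. The Toll-like receptor genes TLR2 and TLR4 had at most 1 read in a library.

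Of 20 other feedback and target genes, 11 of 17 tested were higher and 2 lower with lapatinib under NT siRNA (all genes 30.5% and 29.2%). Under FOXA1 siRNA 10 of 16 were higher and 2 lower (all genes 29.0% and 29.1%). The medians were 0.53 and 0.34. These genes did not move as a block. PLAU, which encodes urokinase, rose by 2.10 ± 0.182 under NT siRNA (adjusted p = 2.93e-05), whereas ICAM1, an adhesion molecule, fell by 1.79 ± 0.367 on the log2 scale (adjusted p = 0.00309). With FOXA1 siRNA 3 of 16 tested were higher and 6 lower in DMSO (all genes 21.9% and 21.3%). In lapatinib 3 of 17 were higher and 7 lower (all genes 22.7% and 22.2%). With the replicate block these became 7 higher and 8 lower (all genes 30.6% and 31.1%). The medians were -0.06 and -0.25. The gene tested only where 17 were tested reached 10 reads in NT siRNA + lapatinib libraries alone. The count filter thus partly set its direction in both of those comparisons. ICAM1 was lower with FOXA1 siRNA at -1.66 ± 0.4 in DMSO (adjusted p = 0.0116, but 0.0679 without replicate 1 of every group). Replicate 2 was the highest of every group for ICAM1. Both of its falls were measured from NT siRNA + DMSO, where its mean was 157 normalized counts with an SD of 80. CYLD, a deubiquitinase that restrains the pathway, was higher in DMSO at 1.16 ± 0.0639 (adjusted p = 1.36e-05).

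Chemokines outside the members were mostly at or near 0 as well: 14 of 20 stayed under 10 reads in every library, and 6 had no read in any. CX3CL1, the membrane-bound fractalkine, was the exception in level, with a mean of 2850 normalized counts in NT siRNA + DMSO and 5010 in NT siRNA + lapatinib (log2 fold change 0.83 ± 0.246, adjusted p = 0.018). With samples left out this value ran from 0.54 to 1.06 and was called in 6 of 9 fits, but not without replicate 1 or 3 of NT siRNA + DMSO or replicate 3 of every group (adjusted p up to 0.0706). CCL22, a ligand of CCR4, was higher with FOXA1 siRNA by 1.14 ± 0.375 in DMSO (adjusted p = 0.0396) and by 1.63 ± 0.316 in lapatinib (adjusted p = 0.00374). The lapatinib call held in 9 of 9 fits with samples left out, whereas the DMSO value ran from 0.82 to 1.61 and was called in 3 (adjusted p up to 0.134), those without replicate 2 of NT siRNA + DMSO, replicate 1 of FOXA1 siRNA + DMSO or replicate 2 of every group. Replicate 2 was the highest of every group for CX3CL1 and CCL22. Lapatinib called 2 of 6 tested chemokines higher and 1 lower with NT siRNA (all genes 30.5% and 29.2%). With FOXA1 siRNA it called 4 of 5 higher and 0 lower by edgeR (all genes 29.0% and 29.1%). FOXA1 siRNA called 2 of 6 higher in DMSO and 3 of 6 in lapatinib (all genes 21.9% and 22.7%). The medians for lapatinib were 0.43 over 6 tested chemokines with NT siRNA and 0.70 over 5 with FOXA1 siRNA, so they rest on different genes. For FOXA1 siRNA the medians were -0.04 in DMSO and 0.83 in lapatinib, over 6 tested each. Some of the tested chemokines had few reads.

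Of 12 cytokines, 7 stayed under 10 reads in every library. The gene for the TNF family ligand TRAIL, TNFSF10, rose with lapatinib by 3.63 ± 0.473 with NT siRNA (adjusted p = 0.000257) and by 3.16 ± 0.218 with FOXA1 siRNA (adjusted p = 1.27e-05). It was the 1 cytokine of 5 tested called higher under each siRNA pool (all genes 30.5% and 29.0%). With FOXA1 siRNA 1 of the 5 tested cytokines was lower in DMSO and 1 higher in lapatinib (all genes 21.3% and 22.7%). TNF itself had 12 to 57 reads. Of the 6 chemokine receptors, CXCR1 had at most 3 reads, CXCR2 25 to 70 and CCR6 8 to 19. FOXA1 siRNA called 1 of 3 tested receptors lower in DMSO and 3 of 4 in lapatinib (all genes 21.3% and 22.2%). Only 2 receptors reached 10 reads in a FOXA1 siRNA library. The others entered these tests through NT siRNA libraries alone, so the count filter partly set their direction and no result is drawn from them. Lapatinib raised 1 of 4 with NT siRNA (all genes 30.5%). A receptor among these 4 reached 10 reads in NT siRNA + lapatinib libraries alone, so no result is drawn from this count either.

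NFKBIA's profile over the 12 samples was most like those of BCKDK (Pearson r = 0.952), MICAL1 (0.942), ZNF496 (0.94), HP1BP3 (0.936) and ADNP2 (0.931), out of 10812 genes with a mean of at least 100 normalized counts. These r values are of log2(normalized count + 1), describe samples that share a replicate order and carry no test. The same measure was computed for CCL20, the chemokine with the highest mean, and no gene is named for it because its level rested on 0 to 5 reads.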

How the data were processed

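RNAseq of 12 SKBR-3 samples was analyzed, 3 replicates in each of 4 groups taken from the labels. The deposited files give expected counts, gene-level read estimates that need not be integers (87.5 to 88.1% were whole), with TPM, FPKM, a mean transcript length and a normalized signal scaled to the upper quartile. The deposited TPM gave levels per length, and the deposited FPKM and normalized signal were not used in tests. By the methods, reads were aligned to hg38 (STAR) and quantified by Salmon, while the submitters' processing notes name RSEM, DESeq, DESeq2 1.12.3 and R 3.2.2. The library kit was stranded by the methods and protocols, the labels also name an unstranded kit, and strand use in the counting is not given in the sources used here. Overlapping and antisense genes are therefore uncertain.

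Expected counts were rounded and tested in R 4.3.3 with edgeR 4.0.16 (glmQLFit, glmQLFTest) after TMM scaling, keeping genes that reached 10 counts in any sample of the fit. The number of genes tested per list therefore differs between comparisons. A gene that passed through a single group of a comparison had its direction there partly set by this filter. Pairwise comparisons used their own 6 samples and the interaction all 12, with Benjamini-Hochberg adjustment over all genes and a threshold of 0.05 with no minimum fold. Counts were scaled by effective (TMM) library size to the mean depth for display as normalized counts. The procedure was tested on simulated data in which few genes changed, all of them well covered, with no effect of replicate number. That simulation does not cover thinly read genes such as BIRC3 or the shift of replicate 2. Alternatives were RLE and upper-quartile scaling, no count filter, a filter on every sample, DESeq2 1.42.0, a log2 fold minimum of 1, 1 model of all samples, a replicate block and leaving out samples. Leaving out a replicate number of every group and the test among replicate numbers were chosen after seeing the data.

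Replicate numbers were checked for pairing. Deviations from group means, over 11512 genes, correlated positively in all 18 same-number sample pairs (r of 0.195 to 0.617, median 0.352). Blocked values are therefore given for the members where they change a call. Counts for the other lists are without the block unless stated, and the block moved some of them. The median r was -0.267 in the 36 different-number pairs. That negative sign follows from centring each group on its mean and adds no separate evidence of pairing. No replicates agreed within counting noise. Named genes were all members, at most 3 genes per list and comparison with the largest called change and a mean of at least 50 normalized counts, FOXA1, and the 5 genes most like NFKBIA. TLR2, TLR4, TNF, the chemokine receptors and the cell type markers are named outside that rule for their levels, after their values were seen. The members, lists and tests were chosen with earlier results of these data known.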

Additional observations from a re-analysis of the deposited data

Results flagged for a closer look

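The lapatinib response differed between FOXA1 and NT siRNA for 1 member, BIRC3, by 1.42 on the log2 scale (edgeR interaction test over 12 samples, Benjamini-Hochberg adjusted p = 0.0208). Its fall with NT siRNA and rise with FOXA1 siRNA were each seen in 3 of 3 replicate numbers. Of 15 fits that left out 1 sample or 1 replicate number of every group, 12 kept the interaction call.

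Other genes of the pathway and marker lists also passed this interaction test, where 3.99% of all genes were positive and 3.20% negative. Of 22 tested receptors and adaptors, 2 were positive and 3 negative, and 2 of 17 other targets were negative. Called positive were 1 of 6 other chemokines and 1 of 3 stromal or endothelial markers. Of 10 cell identity genes 1 was positive and 1 negative, and the remaining lists had 0 calls. Only those that the naming rule allows are named. The response was more negative with FOXA1 siRNA for IL1R1 (-1.01, adjusted p = 0.000598), IER3 (-0.61, adjusted p = 0.0437), BCL2L1 (-0.46, adjusted p = 0.019), TAB2 (-0.44, adjusted p = 0.0374) and ERBB2 (-0.31, adjusted p = 0.0424). It was more positive for CDH5 (1.30, adjusted p = 0.0369), EPCAM (0.53, adjusted p = 0.000656) and TRAF2 (0.47, adjusted p = 0.017). The IL1R1 mean went from 1060 to 2080 normalized counts with lapatinib under NT siRNA and from 706 to 685 under FOXA1 siRNA. With samples left out, the calls of IL1R1, EPCAM and TRAF2 held in 13 of 15 fits, all but those without replicate 1 or 3 of every group, and that of BCL2L1 in 12, lost also without replicate 1 of FOXA1 siRNA + lapatinib. Those of IER3, ERBB2 and CDH5 held in 3 of 15 and that of TAB2 in 4 (highest adjusted p = 0.444, 0.455, 0.365 and 0.409). For these 4 genes the call held without replicate 2 of every group and was lost without replicate 1 or 3 of every group.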

How the results depend on the processing

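With lapatinib and NT siRNA, 1 member was higher. That count was 0 under RLE scaling, upper-quartile scaling, no count filter and DESeq2, 2 with the replicate block, and 0 to 1 when samples were left out. The 1 lower member became 2 with the block, 0 with DESeq2 and 0 to 1 with samples left out. With lapatinib and FOXA1 siRNA the 3 higher members ranged from 1 to 3 with samples left out, 4 passed with the block, 2 with DESeq2 (BIRC3 lost, adjusted p = 0.0544) and 2 with all samples in one model (NFKB2 lost, adjusted p = 0.084). With FOXA1 siRNA in DMSO the 0 lower members became 5 with the block, 1 with no filter, 1 with all samples in one model and 0 to 2 with samples left out. In lapatinib the 1 higher member became 2 with the block and 0 to 2 with samples left out, and the 0 lower members became 1 with the block, 1 with DESeq2 and 0 to 1 with samples left out. The 1 positive interaction became 4 with the block and 0 to 2 with samples left out. A log2 minimum of 1 left 0 members in every pairwise comparison. Where the counts moved, the cause was not tested.

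Directions reversed only for values that had not passed, when samples were left out. With lapatinib and NT siRNA, NFKB2 ranged from -0.30 to 0.025, RELB from -0.14 to 0.62 and NFKBIA from -0.083 to 0.24. With lapatinib and FOXA1 siRNA, NFKBIA ranged from -0.17 to 0.081 (0.016 without replicate 3 of every group). For FOXA1 siRNA, RELB ranged from -0.60 to 0.039 in DMSO and from -0.44 to 0.18 in lapatinib (0.017 without replicate 2 of every group). The interaction ranged from -0.23 to 0.54 for RELB and from -0.27 to 0.073 for NFKBIA. NFKB1 with lapatinib and FOXA1 siRNA passed in each of the 9 fits that left samples out (0.31 to 0.37). Depth limits the 4 chemokines and BIRC3.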
